A study of Homo sapiens with 6 samples.

Results

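Gene deserts are long stretches of a chromosome with no protein-coding gene. Here a ChIP-seq peak was counted as a desert peak when its midpoint lay more than 500 kb from the body of every protein-coding gene of the RefSeq table for GRCh38.p14, on chromosomes 1 to 22 and X. The rule used position only, and it took 10881 of 213202 peaks in 4 deposited lists. The H3K27me3 lists gave 3165 desert peaks in ZCCHC8-KO cells and 4758 in ZCCHC8-WT cells, and the EZH2 lists gave 1619 in KO and 1339 in WT.

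The cells were ACHN, a human renal carcinoma line, with the ZCCHC8 gene knocked out (ZCCHC8-KO, sgZ8 in the titles) or intact (ZCCHC8-WT, Ctrl in the titles). Each of the 2 antibodies was used on 1 library of each genotype, and each genotype had 1 input library that served as the control of both of its peak lists. The labels do not say whether the KO cells were 1 clone or a pool. With 1 library per group no difference between genotypes was tested, differences have no replicate check, and the intervals given with shares are exact 95% Clopper-Pearson intervals that cover counting error only. The sources used here give no read depth, so a longer list may come from a deeper library, and KO lists were the shorter ones (69832 against 93091 H3K27me3 peaks and 19547 against 30732 EZH2 peaks on these chromosomes).

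EZH2 is the methyltransferase subunit of PRC2, a Polycomb repressive complex, which trimethylates lysine 27 of histone H3, a mark of silent genes (H3K27me3). In mammals PRC2 is recruited above all to CpG-rich promoters of developmental genes, and the mark can spread from there over wide domains. ZCCHC8 is the scaffold of the NEXT complex, which hands short-lived nuclear RNAs, among them transcripts of promoters and enhancers, to the RNA exosome, and the title of the series names NEXT as a regulator of H3K27me3 levels. Deserts lack coding promoters. Many border developmental and neuronal genes and hold their distant enhancers and long non-coding RNA genes, whereas the deserts around centromeres are made largely of satellite repeats, in which a read can match many places.

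Sequence was read at the 13 desert promoters that a peak reached, which are no sample of all 10881 desert peaks. Of 653 RefSeq promoters in deserts (windows from 250 bases before to 50 after a gene's start), 4 overlapped an H3K27me3 peak in KO and 6 in WT, and 2 overlapped an EZH2 peak in KO and 1 in WT. These were 0.613% and 0.919% of desert promoters for H3K27me3 in KO and WT, beside 0.700% and 0.889% of promoters outside deserts. For EZH2 they were 0.306% in KO and 0.153% in WT, beside 0.434% and 0.659% outside. By the authors' score, the KO peaks at desert promoters scored 4 or 5 and the WT peaks 6 to 10. KO lists start at a score of 4 and WT lists at 5, so most of these KO peaks stood at the floor of their list. The 5 printed here were chosen after their values were seen, to hold both antibodies, both genotypes and a desert around a centromere, and their genes are listed as non-coding RNA genes with no role known here. Sequences are from RefSeq, build GRCh38.p14, 5′ to 3′ on the strand of the gene, with the bases under the peak in capitals. LOC124902966 (chr12:73362821-73363120, plus strand) lies in the desert between TRHDE and ATXN7L3B and was covered whole by a WT H3K27me3 peak of 836 bp. LOC105375146 (chr7:9960700-9960999, plus strand) lies between NXPH1 and COXFA4 and was covered over 106 bases by a WT H3K27me3 peak. LINC02141 (chr16:59855103-59855402, plus strand), between GOT2 and CDH8, was covered over 98 bases by a KO H3K27me3 peak with a score of 4. LOC124905953 (chr2:22198508-22198807, plus strand), between TDRD15 and KLHL29, was covered over 227 bases by a KO EZH2 peak with a score of 4. LOC101929814 (chr1:143308907-143309206, minus strand), in the desert that holds the centromere of chromosome 1, was covered over 212 bases by a WT H3K27me3 peak.
LOC124902966: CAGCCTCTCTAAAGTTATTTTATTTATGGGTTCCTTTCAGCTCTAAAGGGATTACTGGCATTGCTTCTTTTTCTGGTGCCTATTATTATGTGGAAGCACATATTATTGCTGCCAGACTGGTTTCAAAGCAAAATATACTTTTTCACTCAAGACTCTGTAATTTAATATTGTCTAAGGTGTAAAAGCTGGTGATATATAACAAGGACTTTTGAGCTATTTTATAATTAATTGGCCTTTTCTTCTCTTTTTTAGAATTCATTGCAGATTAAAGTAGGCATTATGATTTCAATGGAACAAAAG
LOC105375146: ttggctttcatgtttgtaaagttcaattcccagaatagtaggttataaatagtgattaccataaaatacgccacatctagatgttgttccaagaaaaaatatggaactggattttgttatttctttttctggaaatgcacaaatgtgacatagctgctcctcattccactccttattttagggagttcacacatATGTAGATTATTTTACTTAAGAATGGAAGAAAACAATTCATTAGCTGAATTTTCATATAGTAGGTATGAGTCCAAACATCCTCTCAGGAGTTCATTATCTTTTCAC
LINC02141: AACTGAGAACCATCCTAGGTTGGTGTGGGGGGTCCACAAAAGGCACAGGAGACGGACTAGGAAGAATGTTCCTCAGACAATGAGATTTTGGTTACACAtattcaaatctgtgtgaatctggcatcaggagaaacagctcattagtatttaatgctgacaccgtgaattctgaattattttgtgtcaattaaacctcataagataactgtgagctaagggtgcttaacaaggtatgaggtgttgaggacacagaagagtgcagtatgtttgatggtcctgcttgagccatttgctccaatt
LOC124905953: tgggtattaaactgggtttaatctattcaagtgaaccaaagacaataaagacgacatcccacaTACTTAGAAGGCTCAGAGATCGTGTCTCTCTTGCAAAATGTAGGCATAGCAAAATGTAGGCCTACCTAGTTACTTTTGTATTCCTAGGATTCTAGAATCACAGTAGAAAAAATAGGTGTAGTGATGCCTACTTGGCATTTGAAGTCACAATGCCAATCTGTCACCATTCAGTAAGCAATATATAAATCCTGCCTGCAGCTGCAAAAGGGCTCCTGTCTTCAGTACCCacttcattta
LOC101929814: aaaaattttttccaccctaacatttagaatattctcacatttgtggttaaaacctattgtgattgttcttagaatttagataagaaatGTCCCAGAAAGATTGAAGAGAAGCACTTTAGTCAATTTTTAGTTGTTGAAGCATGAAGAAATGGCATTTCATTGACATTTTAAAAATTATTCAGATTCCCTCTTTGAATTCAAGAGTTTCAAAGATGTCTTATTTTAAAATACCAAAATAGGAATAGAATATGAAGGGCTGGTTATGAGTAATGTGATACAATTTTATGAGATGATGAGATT

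These windows were poor in CpG, counted over all 300 bases, of which a peak covered only part except at LOC124902966. LOC124902966 and LOC101929814 held no CG dinucleotide, LOC105375146 held 1, and LINC02141 and LOC124905953 held 2 each. Their GC content was 32.3%, 28.3%, 32.7%, 42.0% and 39.7%. Desert promoters in general had a median GC content of 39.3% and a median of 2 CG dinucleotides, against 58.7% and 14 in all 34961 promoters of the table.

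Deserts took 406.6 Mb in 327 stretches, 13.4% of the span from the start of each chromosome to its last gene or peak, with assembly gaps included. They held 4.53% (4.38 to 4.69) of H3K27me3 peaks in KO and 5.11% (4.97 to 5.25) in WT. They held 8.28% (7.90 to 8.68) of EZH2 peaks in KO and 4.36% (4.13 to 4.59) in WT. In the full lists EZH2 peaks in deserts were the more numerous in KO, with a KO over WT ratio of 1.21, while the ratio of EZH2 peaks outside deserts was 0.610. For H3K27me3 the ratio was 0.665 in deserts and 0.755 outside. Neither direction held under every setting, as the EZH2 ratio was 0.836 with scores below 7 left out and 0.943 for peaks over 250 kb from genes, and the H3K27me3 ratio was 1.19 for peaks over 1 Mb from genes and 1.01 when the WT list was cut to the size of the KO list by score.

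The 2 kinds of desert differed in direction. Textbook centromere positions of the build, rounded to 0.1 Mb, were used to set apart 23 deserts that hold a centromere (177.3 Mb) from 304 on chromosome arms (229.3 Mb). On the arms, H3K27me3 peaks numbered 1619 in KO and 3839 in WT (ratio 0.422) and EZH2 peaks 563 and 935 (0.602). In deserts that hold a centromere, H3K27me3 peaks numbered 1546 in KO and 919 in WT (1.68) and EZH2 peaks 1056 and 404 (2.61). The EZH2 excess of the full lists was therefore found in the centromere deserts, and without them the EZH2 ratio was below 1.

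Per Mb of arm desert there were 7.06 H3K27me3 peaks in KO and 16.7 in WT, and 2.45 EZH2 peaks in KO and 4.08 in WT. Outside deserts the H3K27me3 densities were 25.4 and 33.7 peaks per Mb and the EZH2 densities 6.83 and 11.2. Centromere deserts held 8.72 H3K27me3 peaks per Mb in KO and 5.18 in WT, and 5.96 EZH2 peaks in KO and 2.28 in WT. Assembly gaps were not removed from any territory, so the densities around centromeres are understated, and those of arm deserts can be. Arm deserts include the first 4.51 Mb of chromosome 21, which held no peak in any list. Coverage was sparse everywhere: H3K27me3 peaks covered 0.186% of arm desert in KO and 0.473% in WT, against 0.847% and 1.15% of the territory outside deserts.

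**Figure D1:**
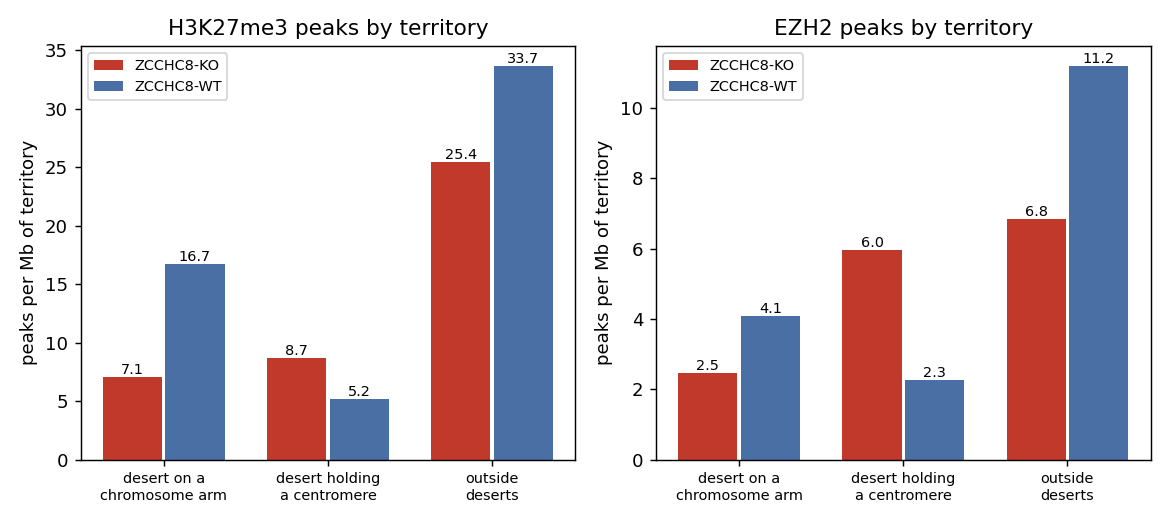
Peaks per Mb of territory (vertical axis) for H3K27me3 (left) and EZH2 (right) in deserts on chromosome arms, deserts that hold a centromere and the territory outside deserts; KO bars are red and WT bars blue, each from 1 library, so no error is drawn. KO bars are lower than WT bars on arms and outside deserts and higher in deserts that hold a centromere (8.72 against 5.18 for H3K27me3, 5.96 against 2.28 for EZH2).

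The split held on most chromosomes. On arms, 19 of 22 chromosomes with such peaks held fewer H3K27me3 desert peaks in KO, and 20 of 21 held fewer EZH2 peaks. Among chromosomes with at least 20 WT peaks in arm deserts, the lowest H3K27me3 ratios were 0.101 on chromosome 3 (8 KO and 79 WT peaks), 0.165 on chromosome 4 (55 and 333) and 0.219 on chromosome 7 (137 and 625). In the same order, their ratios outside deserts were 0.784, 0.533 and 0.409, the last being the lowest of any chromosome. Chromosome 15 held 9 H3K27me3 arm desert peaks in each genotype, and X held 5 in KO and 3 in WT. Chromosome 21 also went the other way, with 51 H3K27me3 peaks in KO and 38 in WT, and 10 and 5 EZH2 peaks. Of its 10 KO EZH2 peaks 8 lay in 1 desert of the short arm, which held 0 in WT. In centromere deserts, H3K27me3 peaks were more numerous in KO on 19 of 22 chromosomes and EZH2 peaks on 22 of 23, the exception being X, with 0 KO peaks and 1 WT peak. On 19 chromosomes the H3K27me3 ratio of arm deserts lay below that of the territory outside deserts on the same chromosome, whereas the EZH2 ratio did so on 9.

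The size of these ratios depended on how weak peaks were treated. Scores were set by the authors in a way that the sources used here do not describe, and the lowest score listed was 4 in both KO lists and 5 in both WT lists. With scores below 7 left out of all lists, arm deserts kept 181 H3K27me3 peaks in KO and 2051 in WT (ratio 0.0882) and 46 and 463 EZH2 peaks (0.0994), and the ratios outside deserts were 0.302 and 0.180. When each WT list was instead cut to its top-scoring peaks, as many as the KO list has, the arm ratio was 0.698 for H3K27me3 and 1.28 for EZH2, against 0.999 and 0.954 outside deserts. The direction of the H3K27me3 ratio on arms was the same under both, and that of EZH2 was not. In centromere deserts the ratio stayed above 1 under both, at 1.26 and 1.93 for H3K27me3 and 1.89 and 3.31 for EZH2.

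The H3K27me3 ratio on the arms was lowest at 500 to 1000 kb from genes. Leaving centromere deserts aside, the ratio of KO to WT H3K27me3 peaks was 0.735 inside protein-coding genes, 0.810 within 50 kb of one, 0.774 at 50 to 100 kb, 0.722 at 100 to 250 kb, 0.614 at 250 to 500 kb, 0.404 at 500 to 1000 kb, 0.496 at 1000 to 2000 kb and 0.773 beyond 2000 kb, where 17 KO peaks stood against 22 WT peaks. The EZH2 ratio had no such order, at 0.566 inside genes, 0.627 within 50 kb, 0.695 at 250 to 500 kb and 0.599 at 500 to 1000 kb, with 3 EZH2 peaks in each genotype beyond 2000 kb. Just outside the limit of the rule, at 400 to 500 kb, there were 1000 KO and 1727 WT H3K27me3 peaks and 295 and 395 EZH2 peaks. Just inside it, at 500 to 600 kb, there were 473 and 1053 H3K27me3 peaks and 165 and 262 EZH2 peaks. The median distance of arm desert peaks to a protein-coding gene was close in the lists, 707 kb in KO and 702 kb in WT for H3K27me3 and 710 kb and 719 kb for EZH2.

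**Figure D2:**
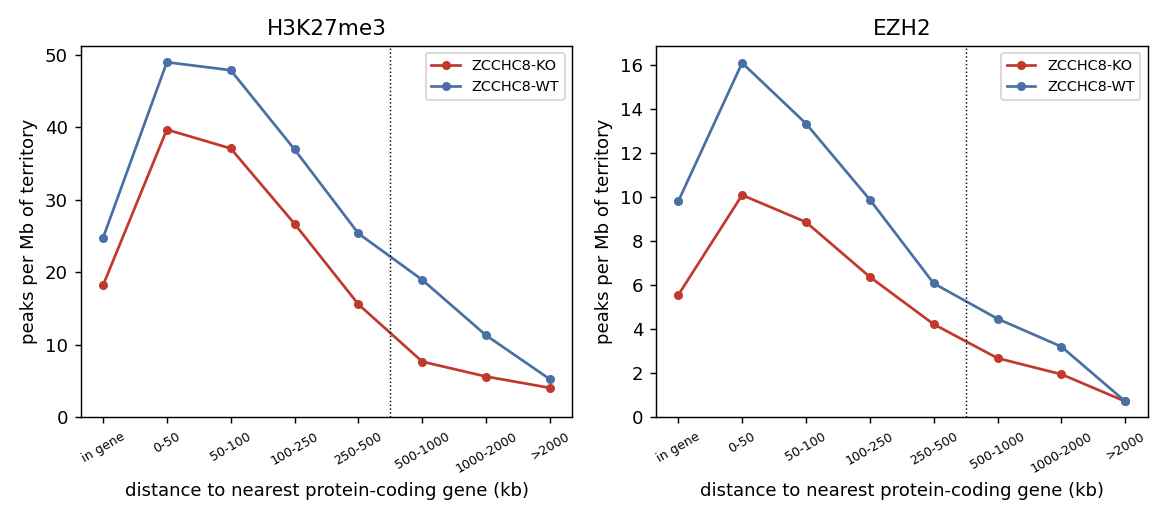
Peaks per Mb of territory (vertical axis) by distance of the peak's midpoint from the nearest protein-coding gene (horizontal axis, kb classes), for H3K27me3 (left) and EZH2 (right), with deserts that hold a centromere left out; KO is red, WT blue, and the dotted line marks the 500 kb limit. Outside genes both antibodies thin out with distance, and the KO line for H3K27me3 lies farthest below the WT line, as a ratio, at 500 to 1000 kb (0.404).

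Peaks in arm deserts were narrower than those outside deserts, and their scores were lower or alike. The median width of H3K27me3 peaks was 228 bp in KO and 242 bp in WT on arms, against 266 bp and 270 bp outside deserts. Their median score was 5 in KO and 7 in WT, against 6 and 7 outside. The highest score of an H3K27me3 peak in any arm desert was 19 in KO, at 1 peak in the desert next to RPIA, and 15 in WT. The second highest was 10 in KO and 14 in WT. EZH2 peaks there had a median width of 211 bp in KO and 195 bp in WT, against 233 bp and 209 bp outside, and a median score of 5 and 6, against 5 and 7. Centromere deserts had wider and higher-scoring H3K27me3 peaks, with median widths of 279 bp and 315 bp and median scores of 8 and 9.

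Of 304 arm deserts, 227 held an H3K27me3 peak, and 179 of them held fewer in KO, 42 held more and 6 held equal numbers. As background, 64.6% of all 1-Mb bins with an H3K27me3 peak held fewer in KO and 30.5% held more. For EZH2, 143 of 226 arm deserts with a peak held fewer in KO, 50 held more and 33 held equal numbers, beside 72.4% and 19.9% of bins. Arm deserts vary in length, and only 159 of 304 reach 500 kb. Short ones hold few peaks and can more easily tie, so bins are only a rough background. H3K27me3 peaks were listed in WT only in 78 arm deserts and in KO only in 14. Among the 159 arm deserts of 500 kb or more, the median density was 1.52 H3K27me3 peaks per Mb in KO and 9.44 in WT, and 63 and 29 of them held none. The ranks of those densities in KO and WT were related across the 159 deserts (Spearman rho 0.677, a description over regions that share a library), so deserts dense in WT tended to be the denser ones in KO.

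**Figure D3:**
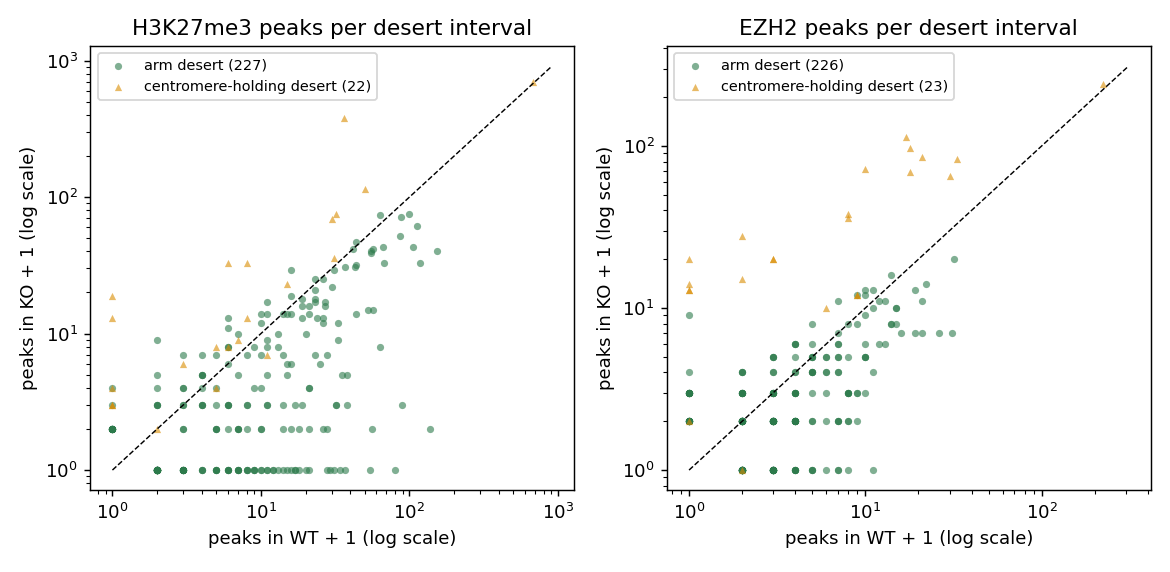
H3K27me3 (left) and EZH2 (right) peaks of each desert with a peak, KO (vertical axis) against WT (horizontal axis), both as peak number plus 1 on log scales; green dots are deserts on chromosome arms, orange triangles deserts that hold a centromere, and the dashed line marks equal numbers. Most green dots lie below the line (179 of 227 for H3K27me3) and most triangles above it (19 of 22).

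KO lacked the most H3K27me3 peaks in a desert of chromosome 7 between ANKRD7 and KCND2, the gene of a potassium channel of neurons and heart (chr7:118742733-119772907). It held 1 KO peak and 136 WT peaks, and none of the WT peaks overlapped a KO peak. The WT peaks were packed to 1 side, with 70 in the first 250 kb, 44 in the second, 20 in the third and 2 in the fourth. A pair of WT domains there, of 8 and 12 peaks joined across gaps of up to 3 kb, were 14.5 and 13.7 kb wide and held no KO H3K27me3 peak. EZH2 peaks of that desert numbered 6 in KO and 25 in WT.

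The desert between REEP3, which shapes the endoplasmic reticulum, and CTNNA3, an alpha-catenin gene of heart, held the most WT H3K27me3 peaks of any arm desert (chr10:64125129-65412522). It had 39 in KO and 152 in WT. In the first 250 kb KO and WT held 25 each, and over the next 4 steps of 250 kb KO held 7, 5, 1 and 1 against 43, 26, 11 and 47 in WT. EZH2 peaks numbered 9 in KO and 10 in WT, so the H3K27me3 difference had no EZH2 difference of like size beside it.

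In 3 further arm deserts KO had nearly no H3K27me3 peaks. Between TRHDE, the gene of the enzyme that degrades thyrotropin-releasing hormone, and ATXN7L3B (chr12:73170759-74037834) there were 2 H3K27me3 peaks in KO and 88 in WT, and 8 and 9 EZH2 peaks. Next to STIM2, a calcium sensor of the endoplasmic reticulum (chr4:27525382-30216630), there were 0 and 79 H3K27me3 peaks and 4 and 6 EZH2 peaks. Between DNAJB9, a chaperone gene, and IMMP2L, a mitochondrial peptidase gene (chr7:109074851-110162643), there were 0 and 53 H3K27me3 peaks. That last desert also had the largest EZH2 deficit on the arms, with 6 peaks in KO and 30 in WT.

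Other arm deserts of chromosome 7 held fewer H3K27me3 peaks in KO but were not empty. Between NXPH1, a neurexophilin gene, and COXFA4 there were 32 H3K27me3 peaks in KO and 116 in WT, and 6 and 15 EZH2 peaks. Between SEMA3D, an axon guidance ligand, and GRM3, a glutamate receptor, there were 42 and 104 H3K27me3 peaks in 0.394 Mb, and 12 of the WT peaks overlapped a KO peak. EZH2 peaks there numbered 5 in KO and 4 in WT. That desert held the widest WT domain of any arm desert, 17.7 kb with 16 peaks (chr7:85830424-85848150), over which KO had 2. Between COBL, an actin nucleator, and POM121L12 there were 42 and 65 H3K27me3 peaks and 6 and 20 EZH2 peaks. Without chromosome 7 the arm ratio was 0.461 for H3K27me3 and 0.642 for EZH2. Fewer KO peaks on chromosome 7 were not particular to its deserts. Outside deserts it had the lowest ratios of any chromosome, 0.409 for H3K27me3 and 0.366 for EZH2. Its arm deserts had 0.219 and 0.339.

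Some of the arm deserts richest in H3K27me3 had many peaks in both genotypes. Between LOC105372073 and PIK3C3, a lipid kinase gene of autophagy, there were 71 H3K27me3 peaks in KO and 87 in WT. Between CTNNA2, an alpha-catenin gene of neurons, and SUCLG1 there were 60 and 112. Few peaks lay at the same place, as 2 WT peaks overlapped a KO peak in each of these deserts.

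Excesses in KO on the arms were smaller than the deficits. Between CHORDC1 and FAT3, an atypical cadherin gene, there were 28 H3K27me3 peaks in KO and 15 in WT. Next to FANCL, a ubiquitin ligase of DNA repair, there were 73 and 62, and a KO domain of 7 peaks over 11.7 kb (chr2:58765107-58776803) had 5 WT peaks. Between TMPRSS15, the gene of intestinal enteropeptidase, and NCAM2, a neural adhesion gene, there were 12 and 5, and next to YTHDF3, a reader of methylated RNA, there were 8 and 1. For EZH2 the largest arm excess was on the short arm of chromosome 21, in a desert of 0.530 Mb with 8 peaks in KO and 0 in WT, where a WT count of 0 allows up to 3. The table lists 8 ribosomal RNA genes in that desert, and none of the 8 EZH2 peaks or of the 6 KO and 2 WT H3K27me3 peaks lay in one. Between TBX3, a limb and heart factor, and MED13L there were 10 EZH2 peaks in KO and 6 in WT.

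Some EZH2 deficits on the arms lay in deserts with little H3K27me3 in KO, and others did not. Between ZEB2, a repressor of epithelial genes, and ACVR2A, an activin receptor, there were 19 EZH2 peaks in KO and 31 in WT, with 1 and 25 H3K27me3 peaks. Between CDC73, a tumour suppressor of the Paf1 complex, and KCNT2, a potassium channel, there were 6 and 18 EZH2 peaks with 0 and 1 H3K27me3 peaks. Between TMEFF2 and SLC39A10, a zinc transporter, there were 13 and 21 with 0 and 3. Between CTNNA2 and SUCLG1, by contrast, there were 10 and 20 EZH2 peaks with 60 and 112 H3K27me3 peaks.

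Genes known to border wide intergenic stretches were taken from lists chosen with earlier results of these data known. Of 54 developmental regulators 20 flanked a desert, and the 22 arm deserts beside them held 46 H3K27me3 peaks in KO and 107 in WT (ratio 0.430), fewer in KO in 12 and more in 3, with a median difference of -1 peak, as over all 304. SOX9, a cartilage and testis factor, bordered a desert with 11 KO and 25 WT peaks. POU3F2, a neural factor, bordered one with 20 and 22. Of 93 adhesion, guidance and synaptic genes 58 flanked a desert, and the 65 arm deserts beside them held 552 and 1185 (0.466), fewer in KO in 47 and more in 9, with a median difference of -5. Over all 304 arm deserts, 179 held fewer in KO and 42 more. The desert between the cadherin genes CDH8 and CDH11 held 32 and 66. The ratio over all arm deserts was 0.422, which lay just below that of either group. EZH2 peaks of the developmental group numbered 23 in KO and 46 in WT (0.5) and of the adhesion group 148 and 278 (0.532), beside 0.602 over all arm deserts.

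Genes not typed as protein-coding (called non-coding here, with pseudogenes and immunoglobulin segments included) covered 22.9% of arm desert. They held 29.2% (27.01 to 31.5) of the H3K27me3 peaks there in KO and 25.6% (24.2 to 26.99) in WT, and 29.7% (25.9 to 33.6) and 28.0% (25.2 to 31.0) of the EZH2 peaks. For single genes only desert peaks were counted, so any part of a gene outside the desert is left out. LOC124902439, in the REEP3 desert, had 33 H3K27me3 peaks in KO and 74 in WT. LINC01122, next to FANCL, had 37 and 21, and LOC107985255, next to the semaphorin receptor gene PLXNA2, had 1 and 30. The immunoglobulin kappa locus IGK codes for antibody chains but is not typed as protein-coding, so part of it counted as desert. That part had 16 and 22 H3K27me3 peaks and 7 EZH2 peaks in each genotype.

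For EZH2, LOC100505498 in the ZEB2 desert had 5 peaks in KO and 4 in WT. LOC105371657 had 6 and 2, and LOC124904475 in the CDC73 desert had 1 and 7. In their desert parts, neither they nor LOC100505498 held an H3K27me3 peak in either genotype. Their parts outside deserts were not counted. The names of these genes carry no known role here.

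In deserts that hold a centromere the peaks were unevenly spread over chromosomes, and 2 intervals held most of the H3K27me3 peaks. The interval on chromosome 2 between LOC124905938 and LOC107985915 (chr2:91944102-93707960) held 701 H3K27me3 peaks in KO and 680 in WT, and 239 and 222 EZH2 peaks. Its numbers were thus close in KO and WT for both antibodies. Of its WT H3K27me3 peaks 433 overlapped a KO peak, which is 63.7% (59.9 to 67.3). All 5 of the widest H3K27me3 domains in deserts lay there in each genotype. The widest WT domain spanned 104.4 kb with 71 WT peaks and 60 KO peaks (chr2:92473137-92577573), and the widest KO domain 45.1 kb with 30 KO peaks and 31 WT peaks.

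The interval on chromosome 20 right of ZNF337 (chr20:26196854-30313426) was the opposite case. It held 382 H3K27me3 peaks in KO and 35 in WT, and 96 and 17 EZH2 peaks. The excess filled 9 consecutive steps of 250 kb (chr20:26446854-28696853), where KO had 372 H3K27me3 peaks and WT 20, and 13 of the WT peaks overlapped a KO peak. In those steps KO held between 16 and 56 peaks and WT between 1 and 4. EZH2 peaks there numbered 81 in KO and 10 in WT. With scores of 7 or more, 169 KO and 15 WT H3K27me3 peaks were left, and 34 and 10 EZH2 peaks.

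**Figure D4:**
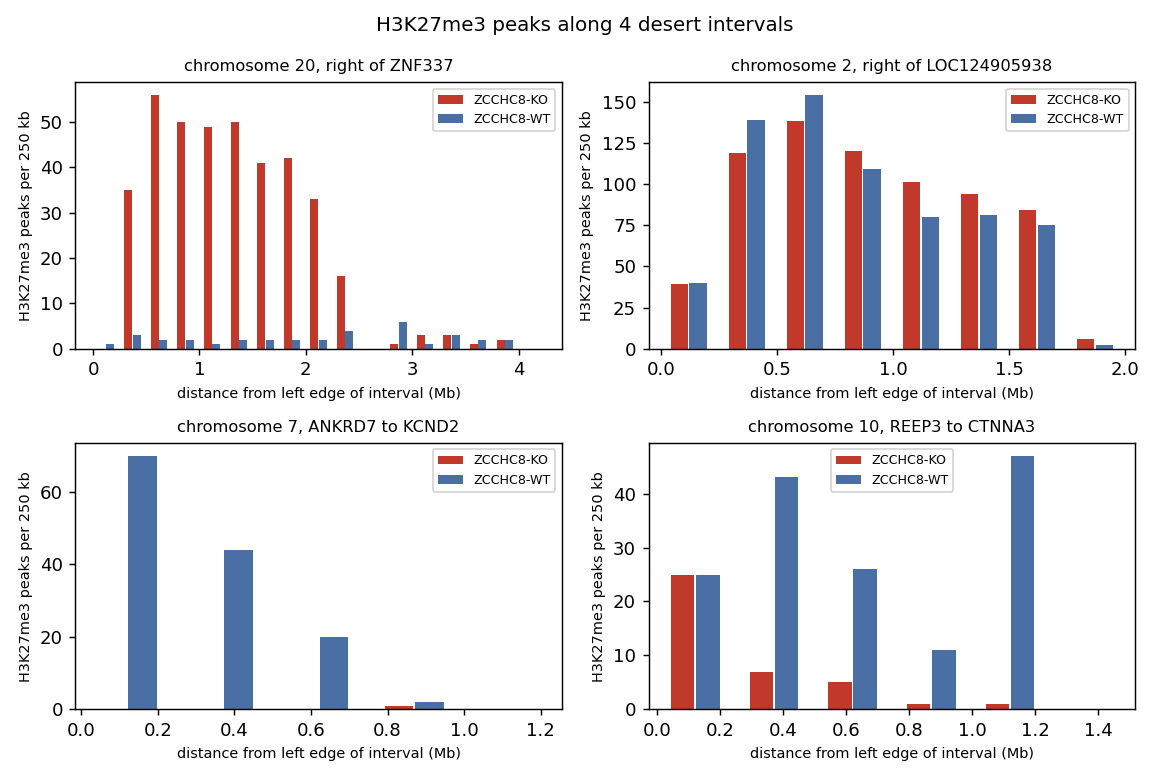
H3K27me3 peaks per 250 kb (vertical axis) along 4 deserts, by distance from the left edge (horizontal axis, Mb), with KO bars in red left of WT bars in blue; the upper panels are the deserts around the centromeres of chromosomes 20 and 2, the lower panels the arm deserts of ANKRD7 to KCND2 and REEP3 to CTNNA3. KO exceeds WT over 9 steps on chromosome 20 (372 and 20 peaks), the 2 genotypes run close on chromosome 2 (701 and 680), and WT exceeds KO in the ANKRD7 panel (1 and 136) and beyond the first step in the REEP3 panel.

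The centromere ratio depended on these 2 chromosomes. Without chromosome 20 the H3K27me3 ratio was 1.32, without chromosome 2 it was 3.54, and without both it was 2.27. The EZH2 ratio was 2.48 without chromosome 20 and 4.49 without chromosome 2. Centromere deserts with the next largest H3K27me3 excess were those of chromosome 1 (114 KO and 49 WT peaks), 19 (74 and 31), 5 (68 and 29), 10 (32 and 5) and 12 (32 and 7). For EZH2 they held 112 and 16 peaks on chromosome 1, 64 and 29 on 19, 82 and 32 on 5, 68 and 17 on 10 and 85 and 20 on 12. On chromosome 7 the centromere desert had 71 EZH2 peaks in KO and 9 in WT but 8 and 6 H3K27me3 peaks.

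High scores were frequent in centromere deserts for their territory, 5.85% of the span. The highest score of each list lay outside deserts, at 1744 in KO and 2644 in WT for H3K27me3 and 891 and 185 for EZH2. Of H3K27me3 peaks with a score of 20 or more, 100 of 147 lay in deserts in KO and 71 of 138 in WT, all in deserts that hold a centromere. Of EZH2 peaks at that level, 116 of 209 lay in deserts in KO and 16 of 57 in WT, and 40 of the 116 were on chromosome 1. The highest-scoring H3K27me3 desert peak was at 1 place in both genotypes, chr1:125180101-125180537 in KO with a score of 752 and chr1:125180217-125180477 in WT with 731. The EZH2 list of KO had its highest desert score, 836, over the same place (chr1:125179652-125180640), and the EZH2 list of WT had no peak there and no score above 20 in that interval. A KO EZH2 domain of 8 peaks at chr1:143212888-143222750 also had no WT EZH2 peak. A WT H3K27me3 peak with a score of 344 lay within it (chr1:143214413-143214817). In WT the highest EZH2 desert score was 136, on chromosome 5 (chr5:49612273-49612431), where no KO peak overlapped.

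Peaks were shared between genotypes less often on arms than around centromeres, where most shared H3K27me3 peaks lay on chromosome 2. Of all H3K27me3 peaks of KO 21.4% overlapped a WT peak by at least 1 bp, and of all those of WT 15.9% overlapped a KO peak. In arm deserts the shares were 6.36% (5.22 to 7.66) of KO peaks and 2.68% (2.195 to 3.24) of WT peaks. In centromere deserts they were 32.2% (29.9 to 34.6) and 54.5% (51.2 to 57.8). Without chromosome 2 they were 7.81% (6.09 to 9.83) and 28.5% (22.8 to 34.6), so the KO share was then close to that on arms. EZH2 peaks were shared more rarely still. Of all EZH2 peaks 7.97% in KO and 5.12% in WT overlapped the other genotype, beside 0.888% (0.289 to 2.06) and 0.535% (0.174 to 1.24) in arm deserts, 5 peaks in each list.

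Arm peaks were also shared less often at like scores. At the score mix of arm desert peaks, peaks outside deserts would overlap at 16.9% of KO and 12.9% of WT H3K27me3 peaks and 5.71% and 3.17% of EZH2 peaks. At the score mix of centromere desert peaks these values were 38.7% and 27.6% for H3K27me3 and 20.1% and 12.4% for EZH2. Centromere desert peaks themselves overlapped at 32.2% and 54.5%, and at 9.75% and 25.5%, so KO peaks there were shared less than outside and WT peaks more. Among WT H3K27me3 peaks with a score of 8 to 11, 3.78% (2.67 to 5.17) overlapped a KO peak in arm deserts, 55.2% (50.1 to 60.2) in centromere deserts and 20.5% (20.1 to 20.9) outside deserts. Among KO peaks of that score 17.9% (8.91 to 30.4), 40.4% and 44.4% overlapped a WT peak. Peaks per Mb were fewer on arms than outside deserts in each list. In centromere deserts, 433 of the 501 shared WT H3K27me3 peaks lay in the chromosome 2 interval, which held 680 WT peaks in 1.76 Mb. The part of density in the overlap was not tested. The overlap between repeats of 1 genotype is unknown, so low sharing is no measure of change.

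**Figure D5:**
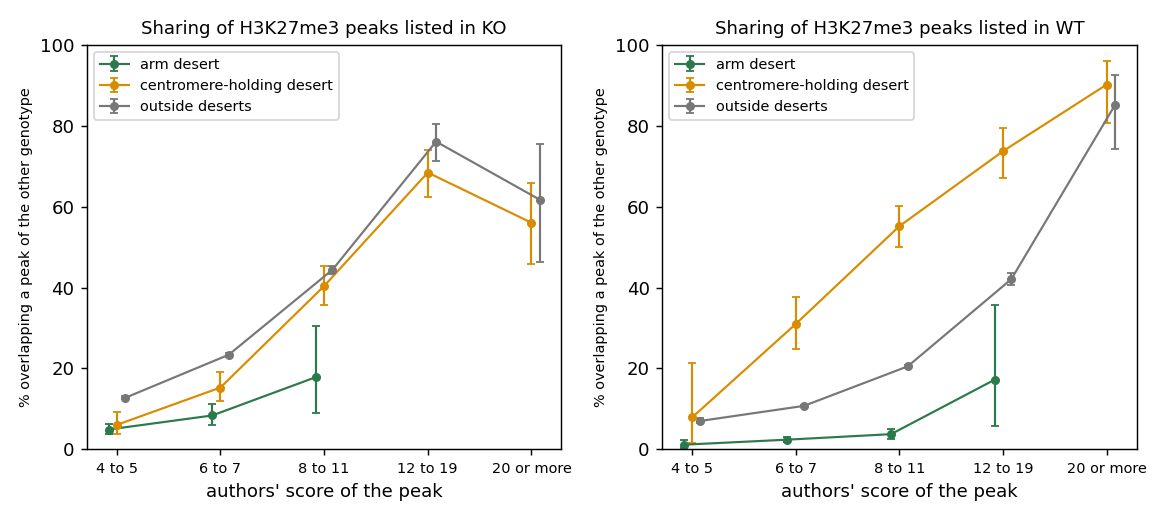
Share of H3K27me3 peaks overlapping a peak of the other genotype (vertical axis, %) by the authors' score (horizontal axis), for peaks listed in KO (left) and in WT (right); colours are the kinds of territory, bars are exact 95% intervals of counting error, and classes of under 20 peaks are not drawn. At scores of 8 to 11, arm desert peaks of WT were shared at 3.78%, against 55.2% in centromere deserts and 20.5% outside deserts.

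EZH2 and H3K27me3 peaks seldom met on arms. In KO, 1.78% (0.855 to 3.24) of EZH2 peaks in arm deserts overlapped an H3K27me3 peak of the same genotype, 10 of 563, and in WT 2.35% (1.48 to 3.54), 22 of 935. Over all peaks the shares were 19% in KO and 14% in WT, and outside deserts 18.7% and 13.8%. The median distance from an arm desert EZH2 peak to the nearest H3K27me3 peak was 81.1 kb in KO and 26.3 kb in WT, against 2.71 kb and 3.97 kb outside deserts. H3K27me3 peaks were also sparser on arms, at 7.06 per Mb in KO and 16.7 in WT, against 25.4 and 33.7 outside deserts. The part of that density in distance and overlap was not tested. In the other direction, 0.618% of arm desert H3K27me3 peaks in KO and 0.573% in WT overlapped an EZH2 peak, beside 5.27% and 4.52% of all H3K27me3 peaks and 22.8% and 22.3% in centromere deserts. No arm desert EZH2 peak of WT overlapped all 3 other lists, 0 of 935, which allows a share of up to 0.394%, while 1.06% of those outside deserts did.

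Around centromeres the antibodies met more often. In KO 33.6% (30.8 to 36.6) of EZH2 peaks in centromere deserts overlapped an H3K27me3 peak, and in WT 53.0% (48.0 to 57.9). On chromosome 2 alone the shares were 82.4% and 86.0%, and without it 19.3% and 12.6%. Of 404 EZH2 peaks of WT in centromere deserts 75 overlapped all 3 other lists, 70 of them on chromosome 2. Both lists of a genotype share an input library, and peaks in repeats rest on reads that can match many places, so the part of the input and of read placement in these overlaps was not tested.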

How the data were processed

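The submitters' processing notes name cutadapt 1.9.3, Bowtie2 2.2.4 and the build hg38; which program called the peaks, and from how many reads, is not stated in the sources used here. The 4 deposited peak lists hold position, length and the authors' score, whose definition is not given, so the score was used only to rank or filter peaks. Peak names carry a p threshold of 1e-3, per the deposited lists. Lines repeated identically, up to 81 times, were counted once, and coordinates were read as 1-based.

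Deserts came from 19817 protein-coding genes of RefSeq GRCh38.p14. A further 153 table rows on other scaffolds were left out. Centromere positions were textbook values, not taken from the files. Overlap needed 1 bp, and domains joined peaks across 3 kb. Named were, by rule, the deserts with the most peaks, the largest deficits and excesses, the widest domains, the highest scores and the non-coding genes with most coverage; additional arm deserts were chosen after their values were seen. Some items the rule takes are not reported here. The members, lists and rules were chosen with earlier results of these data known. Gene windows with no coordinates in the table were not used here. Counts and shares used Python 3.11.15, NumPy 2.4.6, pandas 2.3.3, SciPy 1.17.1 and matplotlib 3.10.9. Desert assignment and overlap were checked by brute force on a sample of WT EZH2 peaks, and overlap also with planted, shifted copies of such peaks.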

Additional observations from a re-analysis of the deposited data

How the results depend on the processing

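The H3K27me3 ratio of desert peaks, 0.665, was 1.19 for peaks over 1 Mb from genes (1.16 for covered length), 0.411 with scores below 7 left out, 0.732 without chromosome 7, 0.422 without deserts that hold a centromere and 1.01 with WT lists cut to the size of the KO lists. The EZH2 ratio, 1.21, was 0.943 for peaks over 250 kb from genes, 1.99 over 1 Mb, 0.836 with scores below 7 left out, 0.602 without centromere deserts (0.651 for covered length) and 2.13 with WT lists cut. Chosen after the data were seen, the centromere and arm ratios were 1.26 and 0.0882 for H3K27me3 and 1.89 and 0.0994 for EZH2 with scores below 7 left out, and 1.93 and 0.698, and 3.31 and 1.28, with WT lists cut. The centromere ratio was 3.54 (H3K27me3) and 4.49 (EZH2) without chromosome 2 and 1.32 (H3K27me3) without chromosome 20, and the arm H3K27me3 ratio was 0.461 without chromosome 7. Keeping genes of other scaffolds moved neither the ratios over all deserts nor the share of each list in deserts beyond counting error, and it was not run for the other results.

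The share of each list in deserts (H3K27me3 KO and WT, then EZH2 KO and WT) was 9.80%, 11.5%, 13.4% and 9.03% for peaks over 250 kb from genes, 2.02%, 1.28%, 4.66% and 1.49% over 1 Mb, 5.84%, 4.36%, 15.9% and 3.91% with scores below 7 left out, and 2.32%, 4.12%, 2.88% and 3.04% without centromere deserts. The share of desert peaks overlapping the other genotype, in the same order, was 16.6%, 10.6%, 5.39% and 5.08% over 250 kb, 38.5%, 15.8%, 13.4% and 11.2% with scores below 7 left out, 6.36%, 2.68%, 0.888% and 0.535% without centromere deserts, and 32.7%, 22.4%, 10.3% and 12.7% when peaks within 1 kb counted. Over 1 Mb it was 20.9% and 24.6% for H3K27me3 in KO and WT and 14.6% for EZH2 in WT. With an overlap of 0.5 of the shorter peak it was 16.9% and 11.2% for H3K27me3, and without chromosome 7 it was 14.1% for H3K27me3 in WT. The share of desert EZH2 peaks on H3K27me3, in KO and WT, was 19.3% and 12.6% over 250 kb, 27.4% and 26.0% over 1 Mb, 36.7% and 23.7% with scores below 7 left out, 1.78% and 2.35% without centromere deserts and 28.0% and 23.4% within 1 kb.

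With scores below 7 left out, 14 deserts held more H3K27me3 peaks in KO, against 61, and 23 more EZH2 peaks, against 72. Counting distance from genes of any type left 1093 and 554 H3K27me3 peaks in KO and WT and 793 and 261 EZH2 peaks. The cause of these changes was not tested.

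No paired analysis was possible because each antibody and genotype had 1 library. Read depth, the score's definition and the placement of reads in repeats limit every count, and no common scale of scores is known for KO and WT lists. Low sharing has no repeat of 1 genotype to be set against, and the peak number of a desert also depends on how a broad region was divided into peaks.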
